A study of Gallus gallus with 6 samples.

Results

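GADL1, UPB1 and VNN1 encode 3 enzymes of beta-alanine and pantothenate metabolism, and their expression in the shell gland (uterus) of hens in lay and out of lay is described here. The genes were taken by name from the deposited list of differentially expressed genes (DEGs) and joined by Ensembl identifier to the tables of counts and RPKM values, which hold 19152 genes. All 3 members were found in both tables, and all 3 passed the filter on low counts with 13317 genes in total. Because that list was made from the same libraries, the direction of the members' differences was known beforehand, and the tests below are not independent evidence of it.

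The libraries were made from poly-A RNA of this tissue of Hy-line hens, with 1 library per hen. The 3 layers were 35 weeks old and were sampled at 15 to 20 h post-ovulation, with the egg at the stage of active calcification. The 3 non-layers were hens between 35 and 60 weeks old without growing follicles in the ovary. Age and laying status cannot be told apart for any non-layer older than 35 weeks. RNA was isolated from portions of the uterine tissue, not from separated cells, so that fewer cells of a type and less RNA per cell cannot be told apart. Which part of the organ was taken is not given in the sources used here.

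Beta-alanine is an amino acid that is not built into proteins. In vertebrates it is set free by the breakdown of uracil and by the decarboxylation of aspartate, and it is joined to histidine in the dipeptide carnosine. Pantothenate, a vitamin that animals take up with the feed, is the starting point of coenzyme A, and it is also recovered when coenzyme A is degraded. GADL1 is a pyridoxal phosphate-dependent decarboxylase that, in mammals, forms beta-alanine from aspartate and also acts on cysteine sulfinic acid, a precursor of taurine. UPB1, or beta-ureidopropionase, carries out the last step of uracil breakdown and releases beta-alanine. VNN1, or vanin, is in mammals a membrane-anchored pantetheinase that splits pantetheine into pantothenate and cysteamine.

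The gene counts per library ranged from 14756666 to 20333103. The TMM factors, which correct for differences in library composition, were between 0.859 and 0.934 in layers and between 1.09 and 1.18 in non-layers. The median over the genes tested was 0.0075 on the log2 scale of layers over non-layers with these factors and -0.33 without them. Of 8 markers of the shell gland, 4 have a name in the deposited list (MEPE, OCX36, RARRES1 and SPP1). Their summed expression was between 73260 and 84910 CPM (counts scaled to one common library size after the TMM correction) in layers and between 4828 and 9253 CPM in non-layers. RARRES1 held nearly all of the sum in non-layers (6662 ± 2353 CPM, against 26.7 ± 13.0 CPM for MEPE, SD, n = 3). In layers, MEPE and RARRES1 held most of the sum. None of the 4 was at 0 in the mean of either group, and SPP1 was near 0 in non-layers (0.465 ± 0.281 CPM, SD, n = 3). Every marker with a name comes from the deposited list of DEGs, of whose named genes edgeR called 18.1% as higher and 20.8% as lower in layers (by the thresholds given with the enzymes), against 0.901% and 0.969% of all genes tested. MEPE and SPP1 were called, both higher in layers. The 7 named of 8 ciliated cell markers, of which ZMYND10 was called lower in layers, summed to between 99.6 and 160.5 CPM in layers and between 281 and 374 CPM in non-layers, and the 4 named of 6 leukocyte markers, of which IRF8 held most of the sum and was called lower in layers, to between 103 and 110.1 CPM in layers and between 214 and 278 CPM in non-layers. The other named markers of both lists were not called. The 2 named of 6 egg white markers, LYZ and OVST, were both called higher in layers, with sums between 106 and 329.8 CPM in layers and between 22.8 and 44.8 CPM in non-layers. The sums were not tested, nor was the part of these cells in the differences of the enzymes.

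GADL1 and UPB1 passed the threshold as higher in layers, UPB1 narrowly (adjusted p = 0.0472 by edgeR). VNN1 was higher in layers without passing it (0.0795). GADL1 averaged 12.9-fold, UPB1 7.04-fold and VNN1 2.34-fold higher in layers by the ratio of mean CPM. A DEG here has an adjusted p under 0.05 by edgeR's quasi-likelihood test with Benjamini-Hochberg adjustment over all genes tested, and at least a 2-fold change. By this rule 2 of the 3 members were called, both higher in layers, while 1.87% of all genes tested were called and 0.901% were called as higher in layers. With 1 library left out, GADL1 was called in 2 of 6 fits, and UPB1 and VNN1 in 0 of 6 each. For each of the 3 members, every layer lay above every non-layer in CPM, as for 12.1% of all genes tested. The members come from a list of DEGs of this contrast, and nothing is read from these shares.

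**Figure D1:**
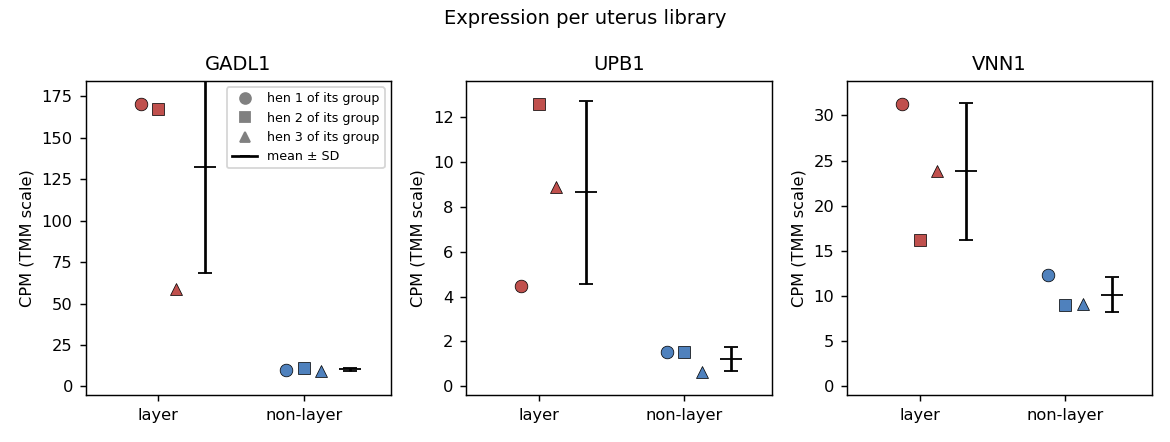
CPM on the TMM scale (vertical axes, from 0) of GADL1, UPB1 and VNN1 in the uterus of 3 layers and 3 non-layers. Each symbol is 1 hen, with its shape giving the replicate number within the group, and the bars give the mean ± SD. For GADL1 the layers lie between 58.8 and 170.5 CPM and the non-layers between 9.59 and 11.04 CPM, and in all panels the groups do not overlap.

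GADL1 (ENSGALG00000011447) lies on the minus strand of chromosome 2 of the Galgal 5.0 assembly from 40023360 to 40105157 and is annotated with 1 protein-coding transcript of 1536 exonic bases. Its counts were 2876, 2410 and 1047 in layers 1, 2 and 3, against 165, 224 and 184 counts in non-layers 1, 2 and 3. Scaled to library size and composition, it reached 170.5, 167.5 and 58.8 CPM in layers, against 10.1, 11.04 and 9.59 CPM in non-layers. Layers 1 and 2 were nearly level and layer 3 was the lowest layer, still 5.33-fold above the highest non-layer. The layers averaged 132 ± 63.6 CPM and the non-layers 10.2 ± 0.738 CPM (SD, n = 3 each), so the coefficient of variation was 48.1% among layers and 7.21% among non-layers. On the log2 scale, the SD of GADL1 among layers was larger than or equal to that of 89.5% of the genes tested, whereas its SD among non-layers exceeded or equalled that of 20.3% of them.

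By edgeR the increase of GADL1 was 3.69 ± 0.417 (SE) on the log2 scale with an adjusted p of 0.0241, which placed it at position 34 among the increases of all genes tested. Without layer 3 the log2 fold change was 4.05 and the adjusted p was 0.0013 by edgeR, and without non-layer 3 they were 3.65 and 0.0317. GADL1 was no longer called without layer 1 (adjusted p = 0.0506 by edgeR), layer 2 (0.0912), non-layer 1 (0.134) or non-layer 2 (0.0886), although its log2 fold change stayed at 3.47 or more and its unadjusted p at 0.000271 or less in each of these fits. With the replicate number as a block, the log2 fold change was 3.55 (adjusted p = 0.056 by edgeR). Layer 3 also differed from layers 1 and 2 in the red blood cell gene HBBA, at 386.5 CPM in layer 3 and 82.2 and 58.3 CPM in layers 1 and 2, against 53.3, 54.3 and 44.1 CPM in non-layers 1, 2 and 3. Of the named shell gland markers, SPP1 and OCX36 were also lowest in layer 3 among layers (159.9 and 1220 CPM). MEPE and RARRES1 were not (52840 and 20300 CPM). Whether blood in the sample or any other difference of layer 3 bears on GADL1 in that library was not tested.

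UPB1 (ENSGALG00000006627) lies on the minus strand of chromosome 15 from 8488894 to 8502592, with 1 protein-coding transcript of 1358 exonic bases. It had the fewest reads of the members, with 75, 181 and 158 counts in layers 1, 2 and 3, against 25, 31 and 12 counts in non-layers 1, 2 and 3. At these depths the exact 95% Poisson interval ran from 59.0 to 94.0 counts for layer 1, the lowest layer, and from 21.1 to 44.0 counts for non-layer 2, the non-layer with the most counts. The interval of non-layer 3, from 6.20 to 21.0 counts, overlapped that of non-layer 1, from 16.2 to 36.9 counts. These intervals cover counting error only.

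In CPM, UPB1 was at 4.45, 12.6 and 8.88 in layers and at 1.52, 1.53 and 0.626 in non-layers. Layer 1, which had the highest GADL1, was the layer with the lowest UPB1. UPB1 averaged 8.64 ± 4.07 CPM among layers and 1.23 ± 0.52 CPM among non-layers (SD, n = 3 each), with similar coefficients of variation of 47.2% and 42.4%. Counting error weighs more on the non-layers, at 12 to 31 counts, than on the layers, at 75 to 181 counts. It was not taken out, so a similar spread between hens is not shown. The edgeR estimate was 2.81 ± 0.523 (SE) on the log2 scale, and the adjusted p of 0.0472 lay just below the threshold. Leaving out any of the 6 libraries (layers 1, 2 or 3, or non-layers 1, 2 or 3) ended the call, with log2 fold changes between 2.43 and 3.12 and adjusted p-values by edgeR between 0.065 and 0.198. With the replicate number as a block, the adjusted p was 0.112 by edgeR.

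VNN1 (ENSGALG00000013993) lies on the plus strand of chromosome 3 from 56992998 to 57019930, with 5 transcripts and 6950 exonic bases in all. It had 528, 233 and 425 counts in layers 1, 2 and 3, against 203, 182 and 175 counts in non-layers 1, 2 and 3. This gave 31.3, 16.2 and 23.9 CPM in layers, against 12.4, 8.97 and 9.12 CPM in non-layers. Layer 2, the layer with the highest UPB1, had the lowest VNN1 of the layers and was 1.31-fold above non-layer 1, the highest non-layer. Scaled by library size only, without the TMM correction, these 2 libraries were nearly level, at 13.91 CPM in layer 2 and 13.76 CPM in non-layer 1. Layers averaged 23.8 ± 7.55 CPM and non-layers 10.2 ± 1.93 CPM (SD, n = 3 each).

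For VNN1, edgeR estimated 1.23 ± 0.292 (SE) on the log2 scale, above the 2-fold minimum, but at an adjusted p of 0.0795 the gene was no DEG. DESeq2's Wald test, the tool of the study, called all 3 members, with adjusted p-values of 1.1e-16 for GADL1, 7.93e-06 for UPB1 and 0.00291 for VNN1. It called 3.1% of all genes with an adjusted p as higher in layers. The study selected the members by this tool on these libraries, so the calls repeat the selection. With library size only in place of TMM, the log2 fold change of VNN1 by edgeR was 0.90, under the 2-fold minimum, and without layer 1 it was 0.98.

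**Figure D2:**
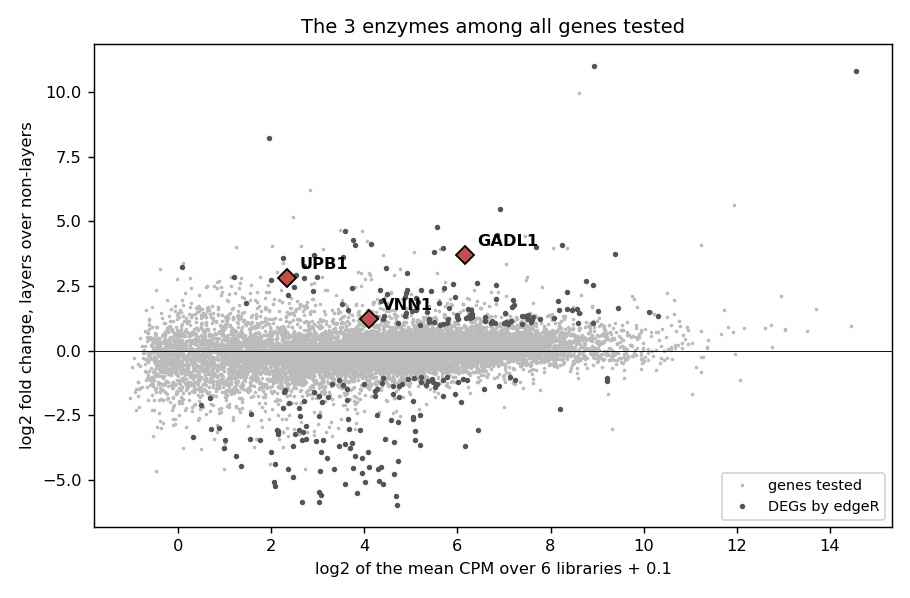
Log2 fold change of layers over non-layers by edgeR (vertical axis) against the log2 of the mean CPM over 6 libraries with 0.1 added (horizontal axis), for the 13317 genes tested in light grey and the 249 DEGs in dark grey. The 3 diamonds are the enzymes, with GADL1 at a log2 fold change of 3.69, UPB1 at 2.81 and VNN1 at 1.23.

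RPKM values, which are divided by transcript length, allow the levels of the 3 genes to be set beside each other. In layers, the mean RPKM was 76.9 ± 37.9 for GADL1, 5.58 ± 2.45 for UPB1 and 8.67 ± 2.84 for VNN1, and in non-layers it was 7.48 ± 0.287 for GADL1, 1.0 ± 0.4 for UPB1 and 5.14 ± 1.005 for VNN1 (SD, n = 3 each). GADL1 was the highest of the 3 genes in each of the 6 libraries. VNN1 was above UPB1 in every library except layer 2, where UPB1 was at 7.96 RPKM and VNN1 at 5.72 RPKM. The counts of VNN1 were divided by a mean of 2447 bases in layers and 2222 bases in non-layers, not by its 6950 exonic bases. Its place beside UPB1 therefore depends on the length used. In non-layer 1, GADL1 was above VNN1 only after the division by length (165 counts of GADL1 and 203 of VNN1). Among the genes with at least 1 count in the same library, the RPKM of GADL1 stood at percentiles 95.2, 94.3 and 81 in layers 1, 2 and 3, against percentiles 41.4, 43.8 and 40.2 in non-layers 1, 2 and 3. UPB1 stood between percentiles 31.8 and 48.9 in layers and between 13.7 and 21.3 in non-layers, and VNN1 between 41.9 and 54.7 in layers and between 33.5 and 38.8 in non-layers. GADL1 thus stood in the upper part of the range in layers and below the median gene in non-layers, while UPB1 was below the median gene in every library.

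The ratio of 2 genes within a library does not depend on how libraries are scaled, and 3 such ratios of counts were compared. GADL1 had 5.45, 10.3 and 2.46 counts per count of VNN1 in layers 1, 2 and 3, against 0.813, 1.23 and 1.05 in non-layers 1, 2 and 3. The groups did not overlap, and the mean log2 ratio was 2.35 higher in layers. The two-sided exact permutation test gave p = 0.1, which is the smallest value that 3 against 3 libraries allow, and 0.3 after Benjamini-Hochberg adjustment over the 3 ratios. The design can therefore not reach the threshold.

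UPB1 had 0.142, 0.777 and 0.372 counts per count of VNN1 in layers 1, 2 and 3, against 0.123, 0.17 and 0.0686 in non-layers 1, 2 and 3. Layer 1 lay within the range of the non-layers, and the difference of 1.61 in the mean log2 ratio gave p = 0.2 (adjusted p = 0.3, exact permutation). GADL1 had 38.4, 13.3 and 6.63 counts per count of UPB1 in layers 1, 2 and 3, against 6.6, 7.23 and 15.3 in non-layers 1, 2 and 3. Here the groups overlapped widely, and the difference in the mean log2 ratio was 0.74 (p = 0.6 by exact permutation, also 0.6 after adjustment). It was 0.06 without layer 1 and 1.33 without layer 3. No ratio of the members was shown to differ between the groups, and none was shown to be alike.

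In RPKM, the groups of VNN1 overlapped. VNN1 was at 11.4, 5.72 and 8.92 RPKM in layers, against 6.29, 4.42 and 4.72 RPKM in non-layers, so that layer 2 lay below non-layer 1. Every layer was above every non-layer in RPKM for GADL1 and UPB1, as for 3.81% of the genes tested. By library size only, VNN1 in layer 2 was still slightly above non-layer 1 (13.91 against 13.76 CPM). Their order in RPKM therefore depends on the length used, which differed between libraries (2433 and 2186 bases). The ratio of mean RPKM was 10.3 for GADL1, 5.56 for UPB1 and 1.69 for VNN1, in each case below the ratio of mean CPM. The RPKM values carry no correction for library composition.

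The length by which a count was divided can be worked out from the count, the RPKM and the summed gene counts of the library. It equalled the exon length for GADL1 and UPB1, and it differed between libraries for VNN1, the member with several transcripts. The implied length of VNN1 was 2567, 2433 and 2342 bases in layers 1, 2 and 3, against 2186, 2202 and 2277 bases in non-layers 1, 2 and 3. The mean was 2447 ± 113 bases in layers and 2222 ± 48.4 bases in non-layers (SD, n = 3 each), the groups did not overlap, and the exact two-sided permutation test gave its smallest possible p of 0.1. Among the 3543 genes tested whose implied length varied by over 1% between libraries, every layer was above every non-layer for 4.35%. The ratio of the group means was 1.1 for VNN1, outside the range from 0.966 to 1.02 between the lowest and the highest decile of these genes. By construction, a longer implied length lowers the RPKM of a given count. How the reads were shared among the 5 transcripts was not given in the sources used here.

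**Figure D3:**
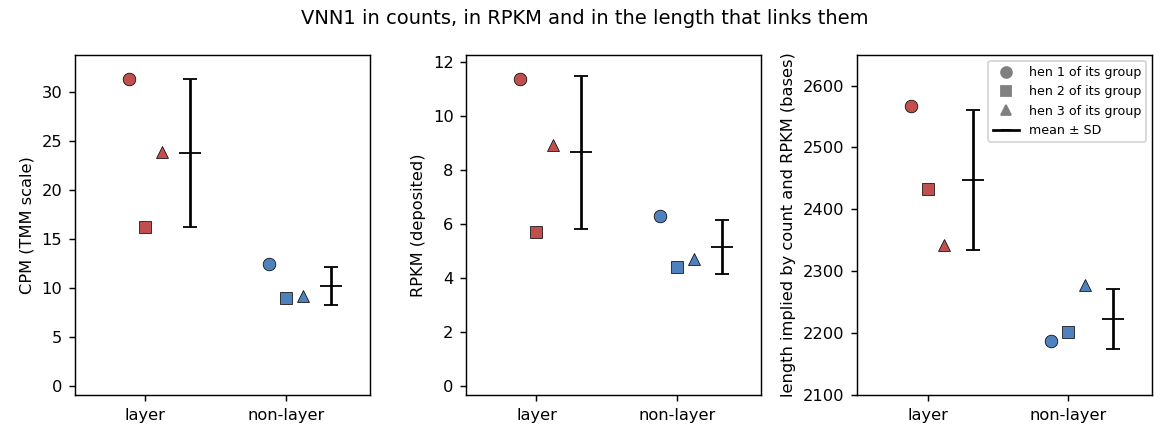
VNN1 in 3 layers and 3 non-layers as CPM on the TMM scale, as deposited RPKM, and as the length in bases implied by count and RPKM (the vertical axis of the right panel does not start at 0). Symbols are hens and bars the mean ± SD. The groups are separate in CPM, overlap in RPKM through layer 2 and non-layer 1, and are separate in implied length, from 2342 bases upward in layers and up to 2277 bases in non-layers.

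The vanin family has close paralogs in mammals. The NCBI RefSeq annotation of the GRCg7b assembly lists 1 vanin gene on chromosome 3, under the symbol VNN2 with VNN1 as a synonym and overlapped by LOC107056139, and 0 of the deposited Ensembl identifiers appear in it. The name VNN1 is therefore that of the deposited list, and reads of a second vanin gene or of an overlapping gene counted under it were not tested.

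Of 57 genes of the surrounding pathways, only 6 have a name in the deposited list, since that list names only genes already called by the study, and the others were not analysed here. They are the 3 members, the polyamine enzyme SRM, and the carriers SLC6A11 and SLC6A14. Of these, 3 were called higher in layers by edgeR (GADL1, UPB1 and SRM) and 0 were called lower, while 18.1% of the named genes and 0.901% of all genes tested were called higher. VNN1, SLC6A14 and SLC6A11 did not pass, so that SRM was the only called gene that is not a member. The estimated log2 fold change was above 0 for all 6, as for 44.4% of the named genes and 50.6% of all genes tested. The 3 members are among the 6 and were chosen from the deposited list, so nothing is read from these counts and shares. No named gene was at hand among 8 genes of beta-alanine use and breakdown or among 3 of pyridoxal phosphate supply, VNN1 was the 1 named gene of 16 for pantothenate and coenzyme A, UPB1 of 7 for pyrimidine breakdown, and GADL1 of 9 for decarboxylases and sulfur supply.

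SRM, or spermidine synthase, makes spermidine, and polyamines can be broken down to beta-alanine. Its expression was 85.2, 129 and 50.5 CPM in layers 1, 2 and 3, against 19.9, 16.9 and 12.9 CPM in non-layers 1, 2 and 3, and edgeR called it at 2.41 ± 0.357 (SE) on the log2 scale and an adjusted p of 0.0334. Layer 3 was the lowest layer for SRM, as it was for GADL1. SLC6A14, a sodium- and chloride-dependent amino acid carrier that takes up beta-alanine in mammals, was at 114, 149.7 and 154.5 CPM in layers, against 60.4, 43.7 and 77.1 CPM in non-layers. The difference of 1.21 ± 0.237 (SE) on the log2 scale missed the threshold with an adjusted p of 0.0526 by edgeR. Every layer lay above every non-layer in CPM, as for 12.1% of all genes tested. SLC6A11, a carrier of gamma-aminobutyric acid that also accepts beta-alanine in mammals, had 14, 28 and 14 counts in layers, against 2, 5 and 0 counts in non-layers, and its adjusted p by edgeR was 0.102.

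**Figure D4:**
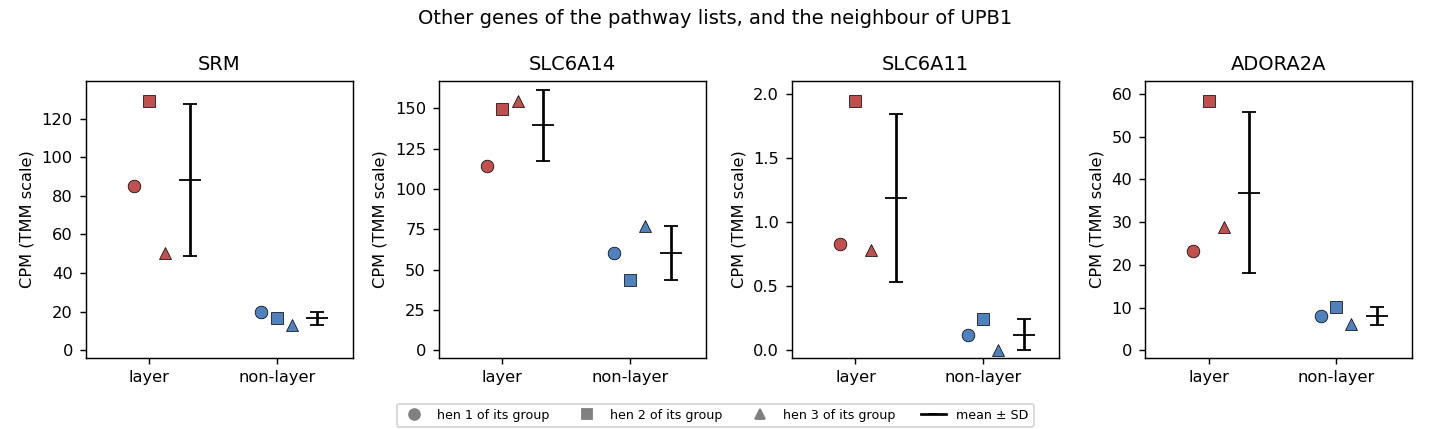
CPM on the TMM scale (vertical axes) of SRM, SLC6A14, SLC6A11 and ADORA2A in the uterus of 3 layers and 3 non-layers, with 1 symbol per hen and bars for the mean ± SD. In each panel the layers lie above the non-layers, as for 12.1% of all genes tested, and these genes come from the deposited list of DEGs. SRM lies between 50.5 and 129 CPM in layers and between 12.9 and 19.9 CPM in non-layers.

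UPB1 has a near neighbour among the genes of the deposited list of DEGs. Neighbours with values came only from that list, so a difference of this gene between the groups was known beforehand. ADORA2A (ENSGALG00000006642), an adenosine receptor gene, lies on the same strand of chromosome 15 from 8526761 to 8536246, that is, 24168 bases from UPB1 on its upstream side. ADORA2A was at 23.2, 58.3 and 28.9 CPM in layers 1, 2 and 3, against 7.99, 10.2 and 6.05 CPM in non-layers 1, 2 and 3. This was a difference of 2.19 ± 0.395 (SE) on the log2 scale, called by edgeR with an adjusted p of 0.0445. Of the named genes edgeR called 18.1% as higher in layers, and of all genes tested 0.901%. Both genes had the order layer 2, layer 3, layer 1 among layers and were lowest in non-layer 3 among non-layers. The egg white markers LYZ and OVST had the same order among layers, but were lowest in non-layer 1 and non-layer 2. How common this order is among genes was not counted. UPB1 had 12 counts in non-layer 3, and their Poisson interval overlapped that of the 25 counts in non-layer 1. Nothing is read from the shared order. In the GRCg7b annotation the genes on either side of UPB1 are GUCD1 and ADORA2A, those beside GADL1 are TGFBR2 and STT3B, and the nearest genes of the deposited list were KIF15 for GADL1, 3238975 bases away, and SGK1 for VNN1, 621709 bases away. Whether reads that run on from ADORA2A were counted on UPB1 was not tested.

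The profile of each member over the 6 libraries was set beside those of 501 other named genes with a mean of at least 1 CPM, as the root-mean-square difference of log2 CPM after each gene was centred on its own mean. GADL1 was most like TC2N, a gene for a protein with tandem C2 domains (0.32), the sugar carrier gene SLC5A9 (0.483) and TSKU, which encodes a small leucine-rich proteoglycan (0.498). UPB1 was most like ATP2B2, the gene of a calcium pump of the plasma membrane (0.345), FST, which encodes the activin-binding protein follistatin (0.365), and LOC427491 (0.387). VNN1 was most like PDE6B, a phosphodiesterase gene (0.219), SH3BGRL2 (0.273) and ANPEP, which encodes aminopeptidase N (0.278). The members were not among each other's 3 nearest genes. UPB1 was at position 33 for GADL1, and the other positions of members lay between 122 and 234. The size of the change between the groups enters this measure. The difference was 0.91 between GADL1 and UPB1, 1.09 between UPB1 and VNN1 and 1.33 between GADL1 and VNN1, and each of the 3 layers was the lowest for 1 of the 3 members. All 501 genes were named because the study had called them between these groups, so this likeness is a description only.

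**Figure D5:**
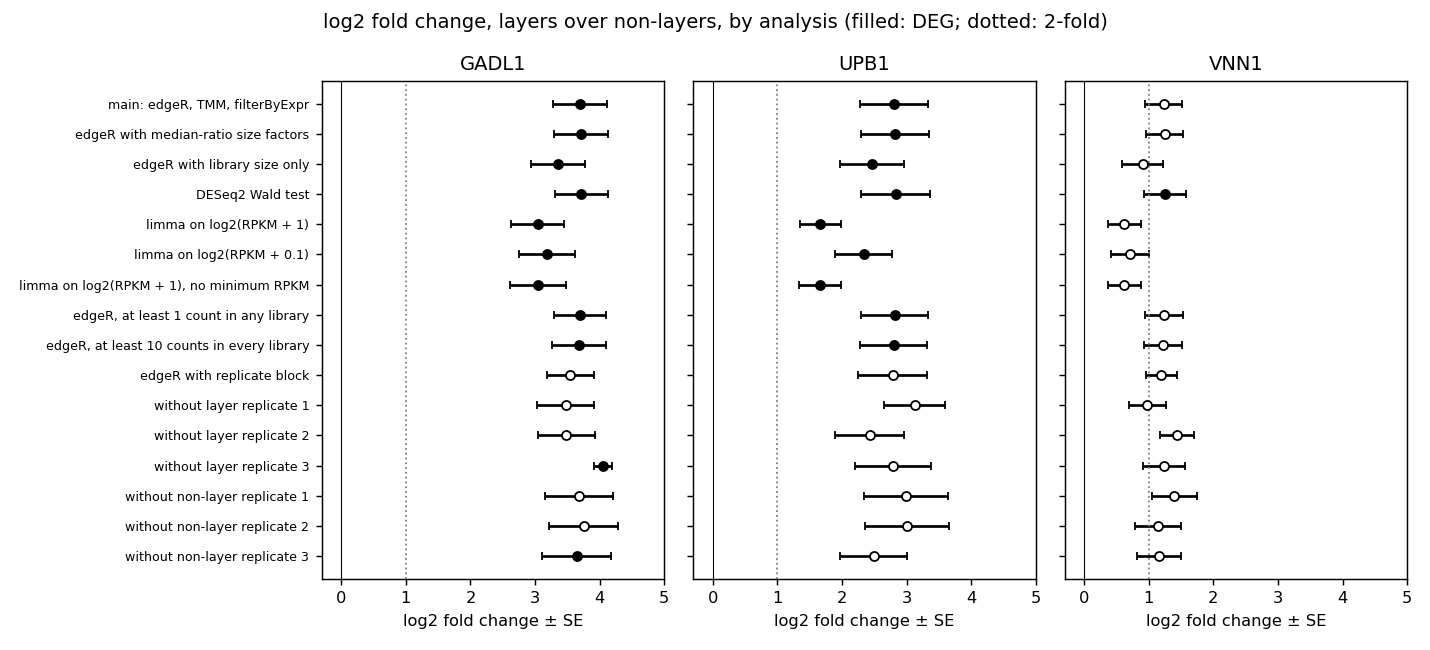
Log2 fold change of layers over non-layers with its standard error (horizontal axes) for GADL1, UPB1 and VNN1 under each analysis, named at the left. Filled circles are fits in which the gene was a DEG, open circles are fits in which it was not, and the dotted line marks a 2-fold change. All estimates are above 0, from 3.04 to 4.05 for GADL1, from 1.66 to 3.12 for UPB1 and from 0.62 to 1.44 for VNN1.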

How the data were processed

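Uterine RNA of 3 layers and 3 non-layers was sequenced as single-end reads. Prinseq was used by the authors for cleaning and Array Studio for alignment to the Galgal 5.0 genome. The tests used the authors' deposited estimated counts per Ensembl gene, which are not normalized. The gene counter, its strand setting and the annotation release are not given in the sources used here. Of these counts 91.46% were whole numbers, and all were rounded for the count tests. The authors also deposited RPKM values, which equal the count scaled by transcript length and by the summed gene counts of the library. A further deposited table gives gene names, coordinates and other annotation of 616 genes, together with fold changes, p-values, q-values and group means of the authors' own comparison, which were not used.

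Groups were taken from the laying status in the labels. The main test was edgeR 4.0.16 in R 4.3.3 with TMM scaling and the filterByExpr minimum. Its quasi-likelihood test took the 6 libraries together and no covariate. The thresholds were an adjusted p of 0.05 and a 2-fold change. For edgeR, the standard error (SE) is an approximation, obtained as the log2 fold change divided by the root of the quasi-likelihood F statistic. Alternatives were other scalings and filters, DESeq2 1.42.0, limma 3.58.1 on log2(RPKM + 1) or log2(RPKM + 0.1) with a minimum RPKM of 1, reached by at least 3 libraries, or no minimum, a replicate block, and leaving out each library. The fits were tested on simulated counts with the same dispersion for every gene, with limma on CPM in place of RPKM. That does not show how they perform on the real libraries. No pair of libraries of a group agreed within sampling noise (chi-square per gene from 13.4 to 155). Samples count as separate hens, and the tests set the difference between the groups against the variation between hens.

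The members and gene lists were chosen with earlier results of these data known. Named were the members, named genes of 7 pathway lists and of the marker lists, flanking genes, and the 3 genes most alike to each member. Profiles used log2(CPM + 0.1). Of the marker lists not described elsewhere, red blood cells had 1 named of 4 (HBBA, not called), and isthmus, smooth muscle, and liver or kidney 0 of 2, 5 and 4. Sequences of the members were not used here.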

Additional observations from a re-analysis of the deposited data

How the results depend on the processing

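All 15 alternatives to the edgeR fit gave a higher level in layers for GADL1, UPB1 and VNN1. The 9 that did not leave out a library called GADL1 and UPB1 in 8 each and VNN1 in 1. That one was DESeq2 (log2 fold change 1.25 for VNN1). The replicate block was the one that ended the calls, with log2 fold changes of 3.55 for GADL1 and 2.78 for UPB1 and with 21 DEGs in place of 249. The numbers are not stated to pair hens, the deviations of same-numbered hens correlated by -0.145, 0.11 and -0.066, and no pairing was taken from them. With 1 library left out, the log2 fold changes ranged from 3.47 to 4.05 for GADL1 (called in 2 of 6 fits), from 2.43 to 3.12 for UPB1 (0 of 6, unadjusted p up to 0.00364) and from 0.98 to 1.44 for VNN1 (0 of 6, unadjusted p up to 0.0159). The number of DEGs ranged from 0 (without non-layer 1, with 1704 genes at an unadjusted p under 0.05) to 274 (without non-layer 3), and leaving out layer 1 gave 41, layer 2 gave 2 and non-layer 2 gave 1. It was 781 with library size only (13.2% higher in layers, against 48.2% with TMM), 928 with DESeq2, 626 with limma on log2(RPKM + 1), 664 on log2(RPKM + 0.1) and 434 without a minimum RPKM. The causes were not tested. The differences of the within-library ratios kept their sign in the 7 alternatives of each, from 1.85 to 2.88 for GADL1 to VNN1, from 1.03 to 2.25 for UPB1 to VNN1 and from 0.06 to 1.33 for GADL1 to UPB1. UPB1 had the fewest counts of the members, at 12 to 31 counts in non-layers.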
